A study of Mus musculus with 48 samples.

Results

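The regions described here were stretches of the mouse genome where trimethylation of histone H3 at lysine 4 (H3K4me3) was called as a peak in all 4 libraries labelled Setd1b cKO and in none of the 4 labelled Control. They were chosen by the measured H3K4me3 peaks of both genotypes: the peaks of all 8 libraries on chromosomes 1 to 19 were merged where they overlapped, and 269 of the 72926 merged regions (0.369%) had this pattern. The opposite pattern, all 4 Control libraries and no cKO library, was held by 736 regions (1.01%). Since the H3K4me3 peaks selected the regions, their H3K4me3 values are given as a description with no test.

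The libraries came from adult C57BL/6J mice of 4 to 6 months, of the genotypes Setd1b cKO (a conditional knockout) and Control. The labels give neither the Cre line that deletes the gene, nor the allele of the controls, nor whether each library came from a separate animal, so the p-values measure the spread between these libraries. Chromatin was immunoprecipitated from fixed nuclei of hippocampal CA neurons sorted by flow cytometry, with 4 libraries of each genotype for both methylation marks. H3K27ac had 4 cKO and 3 Control libraries, and H3K9ac had 3 cKO and 4 Control libraries. RNA was counted in 3 libraries of each genotype labelled CA neurons and in 6 of each labelled whole CA tissue.

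Setd1b is the catalytic subunit of a COMPASS complex, a family of enzymes that add methyl groups to lysine 4 of histone H3. H3K4me3 marks the starts of active genes, where it lies over CpG-rich promoters, and appears at lower levels at some active enhancers. H3K4me1 marks enhancers and the flanks of promoters, H3K27ac marks active enhancers and promoters, and H3K9ac is found mainly at active promoters.

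The H3K4me3 libraries held 24.4 to 27.8 M tags and 44938 to 54493 peaks each. All ChIP libraries of a genotype were called against 1 input library, of 31.3 M tags for cKO and 28.8 M for Control, and effects of the input cannot be told apart from those of the genotype in any peak comparison. The level of Setd1b mRNA did not fall in cKO. Levels are given in CPM, read counts relative to the library's total after scaling by a normalization factor per library. In neuron RNA Setd1b was at 60.4, 62.5 and 70.3 CPM in cKO and at 65.3, 50.2 and 48.0 in Control, a log2 difference of 0.25 (SE 0.13, edgeR adjusted p = 0.361). In whole CA tissue it ranged from 54.3 to 67.2 CPM in cKO and from 29.3 to 54.2 in Control, a log2 difference of 0.59 (SE 0.11, edgeR adjusted p = 0.00415). Counts per gene do not show whether a deleted exon is missing, so this is no check of the deletion, and every direction below refers to the libraries as labelled. Apart from Setd1b in whole CA tissue, none of 14 methyltransferase and COMPASS genes and none of 6 H3K4 demethylase genes passed the edgeR test in either material. Of the latter, Kdm5d was at 0 CPM in cKO replicate 6 and 0.06 in Control replicate 4 of whole CA, against 28.8 to 36.9 in the others. Its whole CA test (SE 0.59) therefore says little. Neurod6, a transcription factor of pyramidal neurons, was lower in cKO, with a log2 difference of -2.24 in neurons (edgeR adjusted p = 2.96e-05) and -1.78 in the whole CA (edgeR adjusted p = 1.48e-07). The summed CPM of the excitatory neuron markers was 2470 to 2765 in cKO and 2826 to 3332 in Control neuron RNA, that of the astrocyte markers 26.2 to 27.7 and 25.5 to 32.1, and that of the microglia markers 23.5 to 27.3 and 24.5 to 26.5. In whole CA RNA, the astrocyte sum was 1358 to 1481 CPM in cKO and 1437 to 1716 in Control, the microglia sum 289 to 337 and 333 to 396, and the excitatory neuron sum 6334 to 7177 and 6756 to 7691. Besides Neurod6, the markers that passed the edgeR test were all lower in cKO. In neurons these were Nrgn (excitatory neurons) and Dsp (dentate granule cells). In whole CA tissue they were Map2 (all neurons), Calb1 and Dsp (dentate granule cells), Aqp4 (astrocytes) and Cx3cr1 (microglia). Prox1, the other dentate granule marker, passed in neither material, with log2 differences of -0.02 in neurons and -0.35 in whole CA. The dentate granule sum was 151 to 174 CPM in cKO and 183 to 207 in Control neuron RNA, and 110 to 148 and 145 to 189 in whole CA. The part of these marker levels in the results below was not tested.

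Few of the regions lay at annotated gene starts. A start from RefSeq fell inside 5 of the 262 regions that could be placed against starts (1.91%), and the other 7 regions were not analysed for starts. This share was near those of the Control-only regions (1.69%) and of regions with a peak in 2 cKO and 2 Control libraries (1.60%). Of the regions with a peak in all 8 libraries, 41.9% held a start. All 5 starts in the cKO-only regions belonged to long non-coding RNAs: Gm33680, Gm33172, Gm40315, Gm33022 and Gm52066. The promoter windows of 4 of them, from 250 bases before to 50 bases after the start, are shown because they are the sequences where the cKO-only H3K4me3 meets an annotated start. They are written 5′ to 3′ on the strand of the transcript from the RefSeq table (GRCm38.p6), with the bases inside the H3K4me3 region in capitals. The windows are chr13:110683628-110683927 (plus strand) for Gm33172, chr5:67450243-67450542 (plus) for Gm40315, chr13:56765719-56766018 (minus) for Gm52066 and chr14:19311640-19311939 (minus) for Gm33022.
Gm33172: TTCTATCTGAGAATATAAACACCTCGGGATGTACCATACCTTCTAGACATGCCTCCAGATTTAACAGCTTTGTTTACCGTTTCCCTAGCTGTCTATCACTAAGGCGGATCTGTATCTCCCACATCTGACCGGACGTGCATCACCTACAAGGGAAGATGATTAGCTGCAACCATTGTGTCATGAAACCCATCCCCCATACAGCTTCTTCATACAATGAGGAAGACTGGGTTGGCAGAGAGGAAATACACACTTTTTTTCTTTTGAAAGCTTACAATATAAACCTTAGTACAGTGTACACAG
Gm40315: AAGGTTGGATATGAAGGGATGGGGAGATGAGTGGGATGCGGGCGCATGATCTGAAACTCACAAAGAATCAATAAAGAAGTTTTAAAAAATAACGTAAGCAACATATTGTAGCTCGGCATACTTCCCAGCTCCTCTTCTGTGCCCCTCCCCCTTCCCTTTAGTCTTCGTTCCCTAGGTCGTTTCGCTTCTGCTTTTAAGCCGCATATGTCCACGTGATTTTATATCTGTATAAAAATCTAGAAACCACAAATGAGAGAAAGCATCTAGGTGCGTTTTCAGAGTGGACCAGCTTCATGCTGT
Gm52066: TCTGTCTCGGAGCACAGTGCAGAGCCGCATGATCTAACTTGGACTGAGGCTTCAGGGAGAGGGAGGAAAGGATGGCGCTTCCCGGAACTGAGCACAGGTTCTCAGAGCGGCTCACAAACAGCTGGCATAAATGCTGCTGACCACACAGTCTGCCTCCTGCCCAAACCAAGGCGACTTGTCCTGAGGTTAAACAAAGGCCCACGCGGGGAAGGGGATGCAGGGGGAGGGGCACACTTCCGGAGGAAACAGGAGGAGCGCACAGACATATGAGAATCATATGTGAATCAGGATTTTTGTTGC
Gm33022: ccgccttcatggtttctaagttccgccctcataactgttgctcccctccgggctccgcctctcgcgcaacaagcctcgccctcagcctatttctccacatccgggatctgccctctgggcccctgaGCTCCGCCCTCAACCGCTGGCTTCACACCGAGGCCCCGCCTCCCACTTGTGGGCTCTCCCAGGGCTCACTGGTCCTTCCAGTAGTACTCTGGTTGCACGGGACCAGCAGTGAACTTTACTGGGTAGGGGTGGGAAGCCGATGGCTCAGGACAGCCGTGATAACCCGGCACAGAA

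The first 3 windows lay wholly inside their region, and 174 of the 300 bases of the Gm33022 window did. The windows held 5 CpG dinucleotides for Gm33172, 10 for Gm40315, 10 for Gm52066 and 16 for Gm33022, and 3 for Gm33680, whose window had 94 bases in its region. The median was 7 over all 31396 promoters of the table and 21 over the 14855 whose start lay in a region with a peak in all 8 libraries. The letters TATAAA, the core of the TATA box, occurred on either strand in 13.6% of all promoters and in 2 of these 5 (Gm33172 and Gm40315). GGGCGG, the GC box, occurred in 36.0% of all promoters and in 1 of these 5 (Gm33022), and TGACTCA, an AP-1 site, in 5.26% of all and in none of these 5. These are matches of letters in windows of 300 bases and do not measure the binding of a factor.

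The 5 start regions differed in the other marks they carried. At Gm52066 (chr13:56765716-56766307), H3K4me1 was present in all 8 libraries, H3K27ac in all 7, and H3K9ac in 2 of 3 cKO and 4 of 4 Control libraries. At Gm33172 (chr13:110683595-110684119), H3K4me1 was present in 4 cKO and 3 Control libraries, H3K27ac in all 7, and H3K9ac in 1 Control library. At Gm33680 (chr12:45466238-45466631), H3K4me1 was present in all 8 libraries and H3K27ac in 1 Control library. At Gm40315 (chr5:67450150-67450560), H3K4me1 was called in 1 cKO library and neither acetylation mark in any. At Gm33022 (chr14:19311109-19311813), none of the 3 marks was called in any library. The mean −log10 q of their H3K4me3 peaks over the cKO libraries ran from 3.32 at Gm52066 to 5.41 at Gm33680.

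The H3K4me3 peaks at the 269 regions were narrow and weak. The merged width had a median of 432 bp (214 to 1221), against 712.5 bp in the 736 Control-only regions and 1427 bp in the 27163 regions with a peak in all 8 libraries. The −log10 q that the authors' peak caller gave, where a higher value is a stronger peak, averaged over the cKO libraries, had a median of 5.01 (2.66 to 11.1). It was 6.00 in the Control-only regions, with values up to 41.9, and 67.4 in the regions of all 8 libraries. The median fold of a peak over its local background, also the caller's value, was 4.16, 4.52 and 19.2 in the same order. A set of 1103 regions with a peak in 2 cKO and 2 Control libraries served as weak regions that were not chosen for a genotype. Their median width was 435 bp, their median −log10 q 4.40 and their median fold 3.93.

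The weakness was shared by the 4 cKO libraries. The median −log10 q over the 269 regions was 4.31 in cKO replicate 1, 5.06 in replicate 2, 4.97 in replicate 3 and 4.64 in replicate 4. Under a −log10 q of 5 lay 56.9%, 47.2%, 54.3% and 54.6% of the regions. The summits of the 4 libraries lay within a median of 137 bp of each other.

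**Figure D1:**
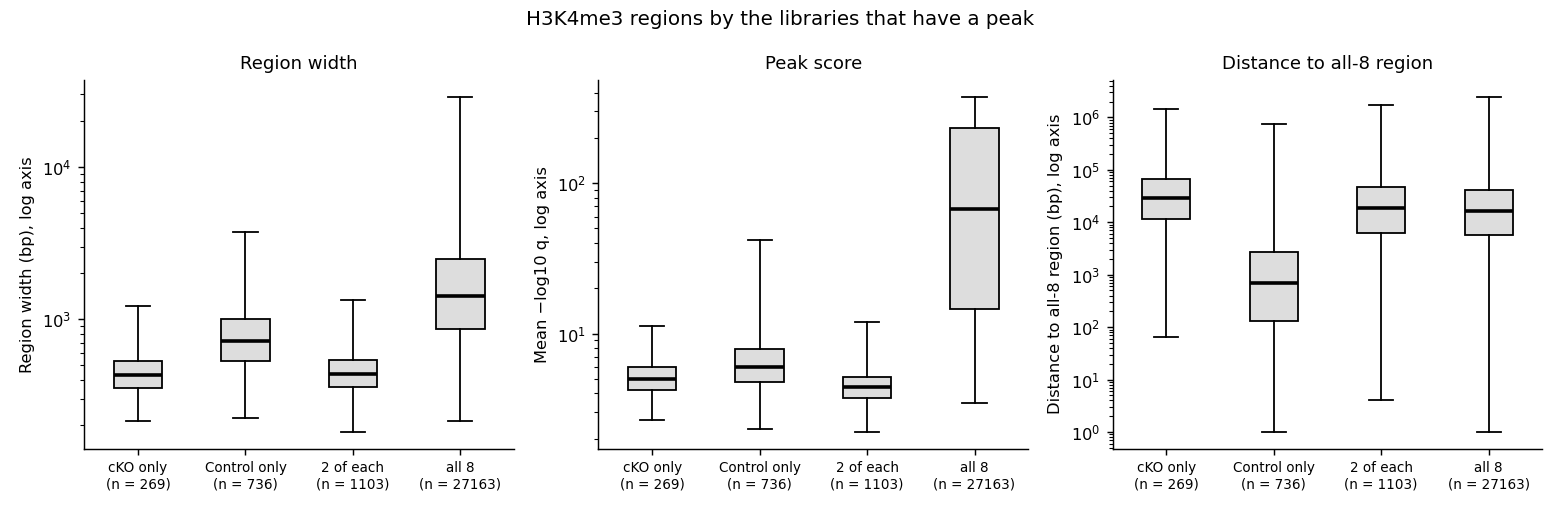
Merged width in bp, mean −log10 q over the libraries with a peak, and distance in bp to the nearest region with a peak in all 8 libraries, each on a log axis, for the 269 cKO-only, 736 Control-only, 1103 weak (2 of each genotype) and 27163 regions of all 8 libraries. Boxes span the quartiles with a line at the median and whiskers reach the lowest and highest value. The cKO-only boxes lie beside those of the 2-of-each regions in width and score, and the Control-only regions stand apart in distance, with a median of 684.5 bp against 28953 bp.

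Most of the regions lay away from promoters and from strong H3K4me3. A start lay within 5 kb of 28 of 262 regions (10.7%), against 47.7% of the Control-only, 15.6% of the 2-of-each and 52.3% of the all-8 regions. The median distance to the nearest start was 36670.5 bp, and 107 regions (40.8%) were farther than 50 kb. Only 10 of the 269 regions (3.72%) had a region of all 8 libraries within 1 kb, against 7.07% of the 2-of-each, 8.62% of the all-8 and 56.5% of the Control-only regions. A Control H3K4me3 peak lay within 1 kb of 32 regions (11.9%). A RefSeq gene span covered 169 regions (62.8%), against 96.2% of the Control-only and 66.5% of the 2-of-each regions. Exons and introns were not told apart, since only gene spans were used.

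The regions were spread over all 19 autosomes. Chromosome 8 held 25, chromosome 1 held 20 and chromosome 10 held 19. Only 12 regions (4.46%) had another of the 269 within 100 kb, in 6 pairs, against 32.5% of the Control-only regions with another of their kind. One such pair lay over Dglucy and another, which includes the region inside Abcc12, on chromosome 8. Setd1b itself (chr5:123142040-123168630) had its nearest region 3.16 Mb away. None of the 1005 annotated miRNA hairpins overlapped a region. None of the genes of the lists of cell type markers, COMPASS subunits and H3K4 demethylases held a region or had one within 5 kb of its start.

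The 10 regions with the strongest H3K4me3 differed widely in the marks beside it. The highest mean −log10 q was 11.1, at chr12:13455811-13456098, over the pseudogene Gm6736 inside Nbas, a gene of Golgi-to-ER transport. Its 4 cKO values were 14.5, 9.22, 10.2 and 10.7. No library had H3K4me1, H3K27ac or H3K9ac there. The same was true of chr4:147733851-147734480 (mean 10.7), 31.2 kb from the zinc finger gene Zfp534, and of chr12:24638826-24639084 (mean 10.3), over the pseudogene Gm6969. At chr4:134087374-134087741 (mean 10.4), over Crybg2, H3K4me1 was called in 3 cKO and no Control library and neither acetylation mark in any.

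Others of the strongest 10 carried enhancer-type marks in both genotypes. At chr15:80459938-80460620, over Enthd1 (mean 9.97), H3K4me1 was present in all 8 libraries, H3K27ac in 3 of 4 cKO and 1 of 3 Control, and H3K9ac in 3 of 3 and 4 of 4. At chr8:86536300-86536612, over Abcc12, an ABC transporter gene (mean 9.52), H3K4me1 and H3K27ac were present in every library and H3K9ac in 3 of 3 and 2 of 4. The widest of all the regions, 1221 bp at chr13:83566230-83567450 in Mef2c, a transcription factor of neuronal development, had a mean of 8.51. The cKO peaks covered 501, 823, 395 and 372 bp of this merged width, and their summits lay up to 1004 bp apart. H3K4me1 was present there in all 8 libraries, H3K27ac in 4 cKO and 2 Control libraries and H3K9ac in none. The cKO values of this Mef2c region were 11.4, 12.9, 5.78 and 3.88, a wide spread within 1 genotype. The remaining 3 were chr13:103795092-103795432 (9.22), chr19:38458255-38458891 (8.997) and chr11:24452383-24452667 (8.39).

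By covered length, the 3 largest were chr1:85287156-85288285 over Gm38510 (mean 699.5 bp), chr1:99813353-99814156 in Cntnap5b, a contactin-associated adhesion protein (583 bp), and chr8:84519867-84520910 in Cacna1a, the pore subunit of the P/Q-type calcium channel (565 bp). No library had any of the 3 other marks at the first. The Cntnap5b region had H3K4me1 in all 8 libraries, H3K27ac in 4 cKO and 2 Control libraries and H3K9ac in 1 cKO library. The Cacna1a region had H3K4me1 and H3K27ac in every library and H3K9ac in 3 of 3 and 4 of 4. The latter 2 thus lay in chromatin that carried enhancer marks in Control libraries too.

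The rule turns on weak peaks at its edge. Just inside it, the lowest −log10 q in any cKO library was 1.199 at chr17:3026919-3027420, 1.32 at the Gm33022 region and 1.36 at chr6:72949348-72949781, 8.45 kb from Tmsb10. Just outside it, chr7:61576325-61576977 had a mean −log10 q of 17.9 in the cKO libraries but a peak of 7.34 in Control replicate 2. Likewise, chr16:65433084-65433681 had a mean of 12.7 and a peak of 3.37 in Control replicate 1, and chr3:36835761-36836217 a mean of 12.2 and a peak of 4.68 in Control replicate 4. In all, 512 regions had a peak in the 4 cKO libraries and 1 Control library, and 859 had one in 3 cKO and no Control library. Of these 859, 363 lacked the peak in cKO replicate 1, 75 in replicate 2, 264 in replicate 3 and 157 in replicate 4.

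The rule does not use H3K4me1, and it was the commonest other mark at the regions, in both genotypes. It was less common here than at the 2-of-each regions and over all merged regions. A peak of H3K4me1 overlapped 81.0%, 84.0%, 81.0% and 81.4% of the 269 regions in the 4 cKO libraries and 79.2%, 77.0%, 75.5% and 75.8% in the 4 Control libraries. The means were 81.9% ± 1.44 (SD, n = 4) and 76.9% ± 1.67 (SD, n = 4), and the libraries of the genotypes did not overlap. Replicate 1 of each genotype (81.0% and 79.2%) was on a lane of its own, and on the other lane the cKO libraries were at 81.0% to 84.0% and the Control libraries at 75.5% to 77.0%. The difference of the means was 5.02 percentage points here, 1.25 points at the 2-of-each regions and -0.201 points over all merged regions. The means at the 2-of-each regions were 86.6% in cKO and 85.4% in Control, and 85.7% and 85.9% over all merged regions. H3K4me1 was called in every library at 175 regions (65.1%), in none at 34 (12.6%), and in all cKO and no Control libraries at 2 (0.743%). These shares were 78.1%, 9.25% and 0.0907% at the 2-of-each regions and 78.3%, 9.84% and 0.0740% over all merged regions.

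H3K27ac was present at fewer regions and differed less clearly. Its share was 43.5%, 46.8%, 40.1% and 45.7% in the cKO libraries and 38.7%, 36.4% and 40.5% in the Control libraries, with means of 44.1% ± 2.95 (SD, n = 4) and 38.5% ± 2.05 (SD, n = 3). The lowest cKO library lay below the highest Control library. By lane, the values were 43.5% and 46.8% against 38.7% and 36.4% on the first and 40.1% and 45.7% against 40.5% on the other. The difference was 5.51 points here, -2.33 points at the 2-of-each regions and -1.47 points over all merged regions. The means there were higher than here: 56.7% in cKO and 59.0% in Control at the 2-of-each regions, and 61.3% and 62.7% over all merged regions. Every library had H3K27ac at 65 regions (24.2%) and none had it at 108 (40.1%). These shares were 46.9% and 30.7% at the 2-of-each regions and 50.4% and 26.7% over all merged regions.

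H3K9ac showed the widest gap between the genotypes in percentage points. It overlapped 43.9%, 34.2% and 31.6% of the regions in the cKO libraries and 19.0%, 23.8%, 24.9% and 23% in the Control libraries, with no overlap. The means were 36.6% ± 6.46 (SD, n = 3) and 22.7% ± 2.59 (SD, n = 4), a difference of 13.9 points. The highest value was that of cKO replicate 1, which also had the most H3K9ac peaks, 138833 against 107536 to 128627 in the other libraries. The file names place replicate 1 of each genotype on another sequencing lane than the rest. On that lane the cKO library was at 43.9% and the Control library at 19.0%, and on the other lane the 2 cKO libraries were at 34.2% and 31.6% and the 3 Control libraries at 23% to 24.9%. A smaller difference in the same direction was present at the 2-of-each regions (8.20 points), at the all-8 regions (1.91) and over all merged regions (3.55), and the Control-only regions had the opposite sign (-18.6). The lack of overlap between the genotypes was not particular to the cKO-only regions. The libraries were also apart at the 2-of-each (48.1% to 53.5% against 40.1% to 44.6%) and all-8 regions (88.26% to 90.7% against 86.9% to 88.22%). Over all merged regions they overlapped. The mean shares were 51.5% in cKO and 43.3% in Control at the 2-of-each regions and 58.6% and 55.1% over all merged regions, above those here. H3K9ac was present in every library at 18 regions (6.69%), in none at 110 (40.9%), and in every cKO and no Control library at 5 (1.86%). These shares were 25.3%, 29.8% and 1.27% at the 2-of-each regions and 39.6%, 25.7% and 0.653% over all merged regions.

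**Figure D2:**
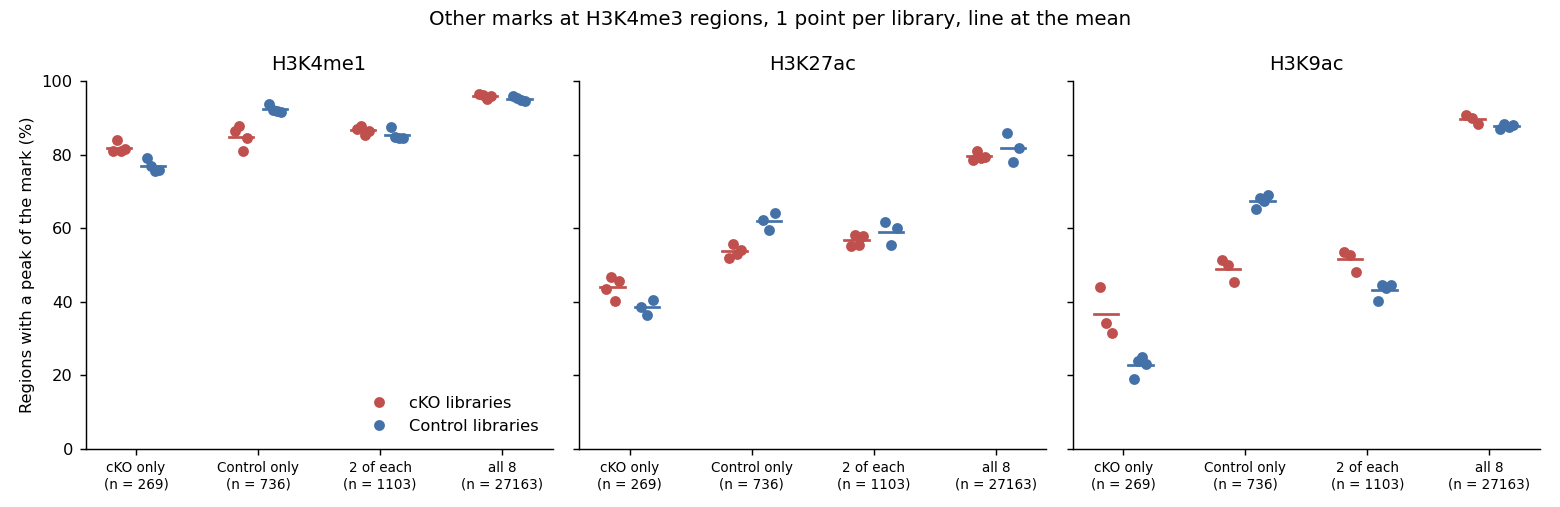
Share of regions in percent that overlap a peak of H3K4me1, H3K27ac or H3K9ac, with 1 point per library, cKO in red and Control in blue, and a line at the mean, for the same 4 classes of regions. At the cKO-only regions the cKO points of H3K9ac lie at 31.6% to 43.9% and the Control points at 19.0% to 24.9%, while at the Control-only regions the order of the genotypes is the opposite for all 3 marks.

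Counted region by region, the larger share of cKO libraries had H3K4me1 at 45 regions, H3K27ac at 67 and H3K9ac at 109, and the larger share of Control libraries at 10, 29 and 32. Equal shares were the commonest state for each mark, at 214, 173 and 128 regions. In percent of the 269, the cKO share was larger at 16.7%, 24.9% and 40.5% and the Control share at 3.72%, 10.8% and 11.9%. At the 2-of-each regions the cKO share was larger at 7.34%, 8.52% and 30.5% and the Control share at 3.54%, 13.9% and 14.4%. The lean to cKO for H3K4me1 and H3K9ac was thus not particular to the cKO-only regions, and for H3K27ac the 2-of-each regions leaned to Control. All 3 marks were present in every library at 15 of the 269 regions (5.58%) and none of the 3 in any library at 33 (12.3%). These shares were 22.8% and 8.79% at the 2-of-each regions and 33.6% and 9.21% over all merged regions. No region had all 3 marks in every cKO library and in no Control library, and neither had any other of the 72926 merged regions.

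The length covered by each mark was measured in a window from 1 kb before to 1 kb after each region. The mean over the 269 windows was 1256 bp ± 75 (SD, n = 4) in cKO and 1099 bp ± 15.5 (SD, n = 4) in Control for H3K4me1. For H3K27ac it was 509 bp ± 49.3 (SD, n = 4) and 441 bp ± 45.2 (SD, n = 3), and for H3K9ac 216 bp ± 17.9 (SD, n = 3) and 126 bp ± 14.1 (SD, n = 4). The background for windows where every cKO library covered more than every Control library was the 43584 merged regions with a peak in at least 3 H3K4me3 libraries. For H3K4me1, 24 of the 269 windows were of this kind and none of the opposite kind, against 4.40% and 4.30% of all windows. For H3K27ac, 15 were higher and 4 lower, against 4.67% and 6.22%. For H3K9ac, 26 were higher and none lower, against 7.03% and 8.06%. As shares of the 269 these counts come to 8.92% higher for H3K4me1, 5.58% higher and 1.49% lower for H3K27ac, and 9.67% higher for H3K9ac. At the 2-of-each regions, H3K4me1 was higher in 3.63% and lower in 0.544% of the windows. There, H3K27ac was higher in 6.44% and lower in 1.99%, and H3K9ac in 9.88% and 0.0907%. For H3K9ac and H3K27ac the share of higher windows was thus near that of the weak regions not chosen for a genotype, and for H3K4me1 it was above it.

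Few single regions passed the test across all windows. The test was limma on log2 of the covered length plus 100 bp, over windows with the mark in at least 3 libraries, with Benjamini-Hochberg adjustment over all windows tested. For H3K4me1, 227 of the 269 regions were tested, and 2 were higher in cKO and none lower, with a background of 0.770% higher and 1.16% lower. For H3K27ac, 137 were tested, and 1 was higher and 1 lower, with a background of 0.280% and 0.517%. For H3K9ac, 106 were tested, and 5 were higher and none lower, with a background of 0.765% and 0.802%. Of the tested regions, 3, 6 and 5 passed the filter through the peaks of 1 genotype alone and so had to differ. These held 1 of the 2 H3K4me1 calls, both H3K27ac calls and all 5 H3K9ac calls, so these counts are no support for a shift of the regions as a group. Against a genotype with no covered base, the log2 difference depends on the added 100 bp and is no bound.

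The 2 regions called for H3K4me1 differed in what the Control libraries showed. At chr5:81508987-81509354 in Adgrl3, a latrophilin (an adhesion receptor of synapses), H3K4me1 covered 323, 474, 365 and 777 bp in the cKO libraries and 0 bp in all 4 Control libraries. The log2 difference was 2.49 (SE 0.22, limma adjusted p = 0.00451). This window passed the filter through cKO peaks alone and so had to differ, and the p-value is no support for a difference. At chr14:86358513-86358954, 58.6 kb from the start of Gm32815, H3K4me1 covered 1885, 1836, 1728 and 1771 bp against 1089, 665, 902 and 776 bp. Both genotypes had the mark there, and it was longer in every cKO library, by 1.01 on the log2 scale (SE 0.13, limma adjusted p = 0.0175).

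The region at chr5:96698971-96699394 in Fras1, an extracellular matrix protein gene, was called for both acetylation marks. H3K27ac covered 695, 346, 408 and 479 bp in cKO and 0 bp in the 3 Control libraries (log2 difference 2.51, SE 0.20, limma adjusted p = 0.00636). H3K9ac covered 192, 406 and 339 bp in cKO and 0 bp in the 4 Control libraries (log2 difference 2.01, SE 0.19, limma adjusted p = 0.00492). For both marks the window passed the filter through cKO peaks alone and so had to differ. The 2 limma p-values are thus no support for a difference. H3K4me1 was present there in 4 cKO and 3 Control libraries. The H3K4me3 scores at this region were 3.55, 6.65, 10.2 and 7.93, with a mean of 7.09. Fras1 mRNA did not pass the test, with log2 differences of 0.17 in neurons (edgeR adjusted p = 0.591) and 0.33 in whole CA tissue (edgeR adjusted p = 0.0613).

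One region went the other way. In the window around chr3:148877721-148878067 in Adgrl2, another latrophilin, H3K27ac covered 0 bp in the 4 cKO libraries and 381, 235 and 227 bp in the 3 Control libraries, outside the H3K4me3 region itself (log2 difference -1.91, SE 0.14, limma adjusted p = 0.00541). This window passed the filter through Control peaks alone and so had to differ, and the p-value is no support for a difference. H3K4me1 was present there in 4 cKO and 3 Control libraries.

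Of the other 4 regions called for H3K9ac, each with 0 bp in all 4 Control libraries, the smallest adjusted p was at chr12:64091563-64091832, outside any gene span and nearest to the start of Gm30915. H3K9ac covered 175, 237 and 213 bp in cKO there (log2 difference 1.62, limma adjusted p = 0.000884). At chr14:122784497-122784942 in Pcca, a subunit of propionyl-CoA carboxylase, it covered 323, 561 and 239 bp (2.19, limma adjusted p = 0.0066). At chr1:25699008-25699312 in Adgrb3, an adhesion receptor related to the latrophilins, it covered 374, 175 and 356 bp, and at chr16:32115145-32115732, 15.4 kb from Cep19, 515, 240 and 168 bp. The latter 2 were named after their values were seen. Each of the 5 regions had H3K9ac in the 3 cKO libraries alone, so without any 1 of them it no longer entered the test. All 5 thus had to differ once they passed the filter, and their p-values are no support for a difference.

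**Figure D3:**
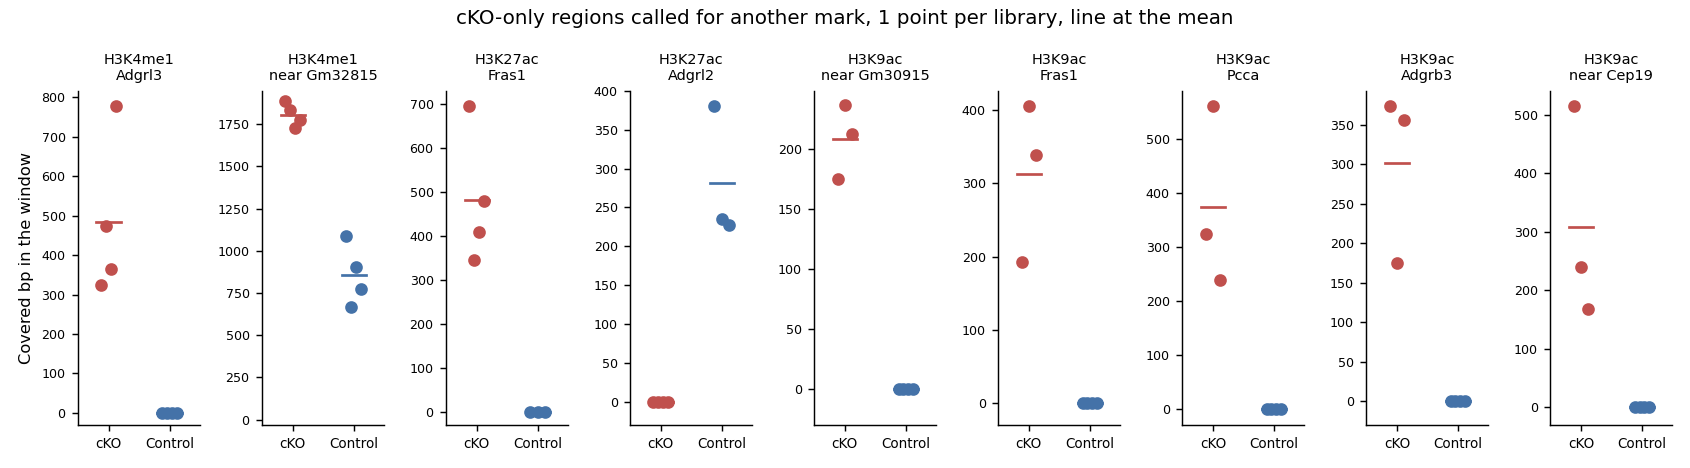
Length in bp covered by the named mark in the window of each cKO-only region that passed the limma test, with 1 point per library, cKO in red and Control in blue, and a line at the mean; each panel has its own scale. In 8 of the 9 panels 1 genotype is at 0 bp in every library, so the window entered the test through the other genotype alone. In the panel near Gm32815 the cKO libraries lie at 1728 to 1885 bp and the Control libraries at 665 to 1089 bp.

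Grouped by H3K4me1, a split made after its values were seen, the regions differed in acetylation, overlap with pseudogenes and local background. The 175 with H3K4me1 in all 8 libraries had H3K27ac in at least 1 library at 139 and H3K9ac at 127, and neither at 22. None of the 175 lay over a pseudogene, and 4 had a local background of at least 1.5 times the genome's at their H3K4me3 summits. This ratio, derived from the caller's pileup and fold, is near 1 where the input library has no excess of reads. The 34 regions with no H3K4me1 had neither acetylation mark at 33, lay over a pseudogene at 8, and had a local background of at least 1.5 times the genome's at 17, with values up to 13.98. Regions without H3K4me1 mostly lacked both acetylation marks elsewhere too, at 97 of 102 among the 2-of-each and 6713 of 7178 over all merged regions. The 60 regions with H3K4me1 in 1 to 7 libraries had neither acetylation mark at 21, a pseudogene at 1 and such a background at 1. Over all 269 regions, 22 (8.18%) had such a background, against 1.90% of the Control-only, 3.99% of the 2-of-each and 1.83% of the all-8 regions. A pseudogene was overlapped by 9 (3.35%), against 0.815%, 1.45% and 1.67% in the same order.

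The regions without H3K4me1 were among the strongest in H3K4me3 by −log10 q, but not by fold over local background. Their median −log10 q was 6.03, and they made up 11 of the 20 highest. Their median fold was 3.73, against 4.15 in the regions with H3K4me1 in all 8 libraries and 4.24 in those with it in 1 to 7. The Zfp534 region had a local background of 4.02 times the genome's, the Gm38510 region 6.20 times and chr17:3026919-3027420 9.37 times. The Gm6736 and Gm6969 regions had a ratio of 1. The part of the input in these peaks was not tested.

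**Figure D4:**
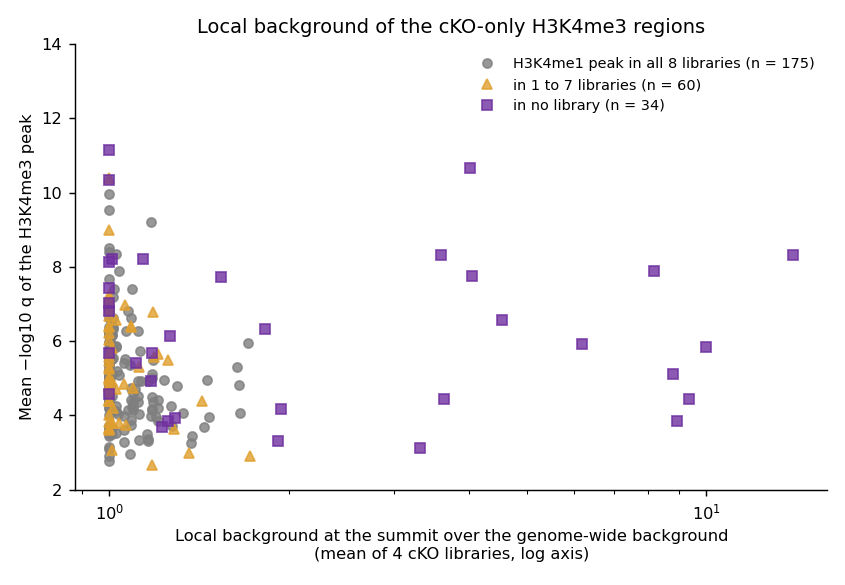
Mean −log10 q of the H3K4me3 peak against the local background at its summit over the genome-wide background (log axis), both averaged over the 4 cKO libraries, for the 269 regions, by the number of libraries with H3K4me1. Regions with H3K4me1 in all 8 libraries (circles, n = 175) lie near a ratio of 1, and squares (no H3K4me1, n = 34) reach 13.98.

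Few of the regions could be tied to the mRNA of a gene at its start. Within 5 kb of a region lay the starts of 31 genes, of which 20 had an Ensembl identifier. In neuron RNA 9 of them were tested with edgeR, and 2 were higher in cKO and 1 lower, against 0.744% and 2.0% of all genes tested. In whole CA RNA 5 were tested, with none higher and 1 lower, against 1.38% and 2.79%. None of the 5 long non-coding RNAs whose start lies inside a region was found in the count tables. With so few genes tested, they are given singly.

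Calhm5, a channel gene of the calcium homeostasis modulator family, was lower in both materials. Its start lies 4.08 kb from chr10:34091975-34092436, which itself lies within the overlapping spans of Calhm5 and Trappc3l, so reads shared by these 2 genes cannot be told apart. In neuron RNA it was at 8.05, 7.69 and 7.39 CPM in cKO and at 11.2, 11.9 and 10.6 in Control, a log2 difference of -0.54 (SE 0.09, edgeR adjusted p = 0.0173). The groups did not overlap. In whole CA RNA the lowest, median and highest values were 7.14, 8.25 and 9.16 CPM in cKO and 9.61, 10.8 and 12.9 in Control, a log2 difference of -0.42 (SE 0.10, edgeR adjusted p = 0.0151), again without overlap. At its region H3K4me1 and H3K27ac were present in every library and H3K9ac in none. The whole CA call remained in 12 of 12 fits that left out 1 library, and the neuron call in 2 of 6.

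Piezo1 and Dglucy passed the test in neuron RNA by a small margin. Piezo1, a mechanically gated ion channel with its start 3.55 kb from chr8:122554883-122555327, was at 4.36, 5.21 and 4.75 CPM in cKO and 3.28, 2.21 and 3.04 in Control (log2 difference 0.75, SE 0.16, edgeR adjusted p = 0.0390). Dglucy, the D-glutamate cyclase of mitochondria, with its start 2.59 kb from chr12:100781642-100781886, was at 6.22, 5.54 and 5.59 CPM against 3.87, 4.20 and 4.12 (log2 difference 0.51, SE 0.11, edgeR adjusted p = 0.0368). The neuron groups did not overlap for either gene. Left-out libraries ended the Piezo1 call in 5 of 6 fits and the Dglucy call in 6 of 6. In whole CA RNA the log2 differences were 0.31 for Piezo1 (edgeR adjusted p = 0.398) and 0.36 for Dglucy (edgeR adjusted p = 0.0731), with overlapping groups. The genotype effects in the 2 materials did not pass a test of their difference for any of these 3 genes (interaction in edgeR, adjusted p = 0.826 for Calhm5, 0.653 for Piezo1 and 0.793 for Dglucy).

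Since most regions lay inside genes, the genes whose span holds a region were also examined, an alternative chosen after the data were seen. The 169 regions inside genes lay in 180 genes. In neuron RNA 123 were tested, and 3 were higher (Myo3b, Ankrd31 and Dglucy) and 3 lower (Kirrel, Cntnap5b and Calhm5), 4.88% in all. In whole CA RNA 116 were tested, and 3 were higher (Myo3b, Adgrl2 and Tmem132d) and 11 lower, 12.1% in all. The lower genes included Pde11a, a phosphodiesterase of cyclic nucleotides, Sema5a and Robo1, of axon guidance, and Shisa6, an AMPA receptor partner. These are examples, and a shared function of the lower genes was not tested. These genes are long, with a median span of 228 kb among those tested in neurons and 260 kb in whole CA, against 21.3 and 24.8 kb of all genes tested. Among all genes of at least 100 kb, 3.67% were called in neurons and 7.93% in whole CA, and among such genes that hold a region 3.26% of 92 and 10.99% of 91. Over all genes tested the shares were 2.75% in neurons and 4.17% in whole CA. Genes of any length that hold a 2-of-each region were called at 2.55% and 5.16%, and those that hold a Control-only region at 6.06% and 10.95%, or 15.3% in whole CA for those of at least 100 kb.

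Myo3b, Kirrel, Cntnap5b and Calhm5 passed the test in both materials, with the same direction in each. Myo3b, an unconventional myosin of class III, was at 3.26, 3.07 and 3.27 CPM in cKO neurons and 1.93, 1.98 and 1.96 in Control (log2 difference 0.71, SE 0.12, edgeR adjusted p = 0.0153). In whole CA it was at 2.81 to 4.83 CPM in cKO and 1.24 to 2.21 in Control (log2 difference 0.99, SE 0.18, edgeR adjusted p = 0.00263). Its region, chr2:70214380-70214744, had H3K4me1 and H3K27ac in every library and H3K9ac in 3 of 3 cKO and 1 of 4 Control libraries, and the gene's start lay 175 kb away.

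Kirrel, an immunoglobulin-type adhesion protein, went the other way. It was at 6.22, 6.84 and 6.62 CPM in cKO neurons and 10.8, 9.45 and 10.3 in Control (log2 difference -0.63, SE 0.10, edgeR adjusted p = 0.0103), and in whole CA at 3.6 to 5.46 CPM against 6.25 to 7.37 (-0.57, SE 0.11, edgeR adjusted p = 0.00438). Cntnap5b was at 15.9, 16.05 and 18.1 CPM against 24.7, 26.5 and 23.6 in neurons (-0.57, SE 0.10, edgeR adjusted p = 0.0155), and in whole CA at 11.8 to 15.1 against 16.7 to 20.9 (-0.47, SE 0.09, edgeR adjusted p = 0.00269). Genes that hold a region with H3K4me3 in cKO only were therefore found both higher and lower in cKO. In bulk RNA, fewer cells of a type and less RNA per cell cannot be told apart.

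**Figure D5:**
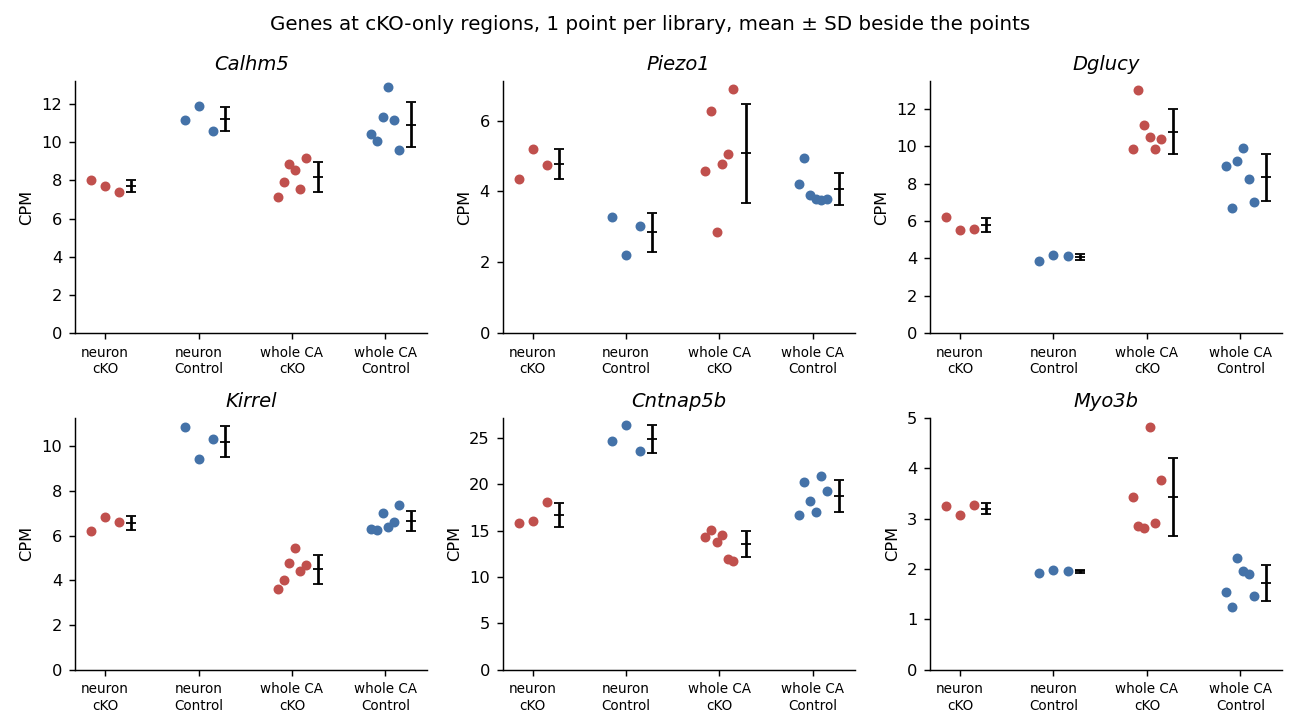
CPM of 6 genes at or over cKO-only regions, with 1 point per library, cKO in red and Control in blue, in neuron RNA (3 per genotype) and whole CA RNA (6 per genotype), with the mean ± SD beside the points. Calhm5, Kirrel and Cntnap5b are lower and Myo3b higher in every cKO library of both materials, and the whole CA points of Piezo1 and Dglucy overlap between the genotypes.

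Of other genes of the regions named above, Mef2c, Cacna1a and Nbas did not pass the test in either material, and Tmsb10 and Adgrl2 passed it in 1 material each. The log2 differences in neuron and whole CA RNA were 0.14 and 0.04 for Mef2c (edgeR adjusted p = 0.742 and 0.874), -0.21 and -0.05 for Cacna1a (0.403 and 0.739), and -0.14 and 0.01 for Nbas (0.507 and 0.971). Tmsb10, a thymosin that binds actin monomers, was lower in neurons by 0.56 on the log2 scale (edgeR adjusted p = 0.0177), a call that held in 1 of 6 fits without a library, and its whole CA difference was -0.21 (edgeR adjusted p = 0.509). Adgrl2 was higher in whole CA at 99.3 to 119 CPM against 80.3 to 101 (log2 difference 0.25, edgeR adjusted p = 0.0356), with overlapping groups, and at -0.07 in neurons (edgeR adjusted p = 0.739).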

How the data were processed

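Peaks had been called per library with MACS 2.1.1.20160309 (H3K4me3) or 2.1.0.20140616 (other marks), at a q cutoff of 0.1 and an effective genome size of 1.87e+09 bp, with broad calling for H3K4me1 only, per the file headers. The deposited peak lists give length in bp, pileup signal, −log10 p and −log10 q values and a fold ratio over local background, all computed by the authors' caller. The submitters' processing notes name SAMtools, MACS2, mm10 and GRCm38. The deposited RNA files hold raw whole-number counts per Ensembl gene; the aligner, counter and strandedness are not given in the sources used here.

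Overlapping peaks (at least 1 bp) were merged with pandas 2.3.3 under Python 3.11.15. Covered lengths were compared with limma 3.58.1 (log2 of covered bp + 100), and counts with edgeR 4.0.16 (quasi-likelihood, TMM) in R 4.3.3, with calls where the Benjamini-Hochberg adjusted p was under 0.05. Both procedures were tested on simulated data. The simulated covered lengths had no floor at 0 bp, so they say nothing about calls where 1 genotype is at 0 bp. Covered length is no measure of signal height, and a region without a peak need not lack the mark. CPM were computed with TMM factors from libraries of 55.7 to 69.1 M (neurons) and 14.9 to 20.1 M (whole CA) counts. Starts, spans and promoters are from RefSeq (GRCm38.p6). No genome sequence was used.

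The regions, gene lists and tests were chosen with earlier results of these data known. Regions named are the 10 highest in −log10 q, the 3 longest in covered length, 3 on each side of the rule's edge, and up to 3 called per mark and direction; genes named are those near them and the called ones. Alternatives were stricter peaks, other merging, offsets and filters, centring, lane, replicate blocks, DESeq2 1.42.0, other distances to genes and leaving out each library.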

Additional observations from a re-analysis of the deposited data

Results flagged for a closer look

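Dixon's test for a library far from the others of its group was applied to 71 sets of values from groups of 4 or 6 libraries, and 3 passed, where chance passes about 1 in 20. The share of the 269 regions with an H3K4me1 peak was 84.0% in cKO replicate 2, above 81.0% to 81.4% in the other cKO libraries. The H3K4me3 score of chr15:80459938-80460620, over Enthd1, was 14.6 in cKO replicate 4 and 8.34 to 8.58 in the others. The H3K4me3 length of chr17:3026919-3027420 was 190 bp in cKO replicate 4 and 420 to 462 bp in the others.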

How the results depend on the processing

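Of 180 alternative values for 12 counts, 103 stayed within 1.5 times the value reported and 77 did not. The causes were not tested. The 269 cKO-only regions became 169 with peaks of a −log10 q of at least 5 in every library (22 of the 269 overlapped one), 22 when presence needed such a peak and absence no peak at all, 781 with at most 1 Control peak allowed, 660 from replicates 1 to 3, and 349 to 632 without 1 library. The 736 Control-only regions became 440, 211, 1125, 1194 and 779 to 1097 in the same order, 183 with peaks within 1 kb merged and 410 with no cKO peak within 1 kb.

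For H3K4me1, the 794 calls over all windows became 348 without the flanks (249 higher, 99 lower; 317 and 477 with them), 31 with a replicate block and 560 to 783 without 1 library. The 2 calls among the 269 regions became 4 with an offset of 1000 bp, 1 without the flanks, 1 with the mark required in every library, 5 after centring, 0 with the block and 1 to 6 without 1 library. For H3K27ac, the 265 calls became 99 with the offset of 1000 bp, 3 with the mark in every library, 0 with the block, 131 with the lane as a term (added after seeing the data) and 30 to 225 without 1 library, and the 2 among the regions became 0, 0, 0 and, without 1 library, 0 to 3 (0 without Control replicate 1 or 4, and 1 without Control replicate 3). The split of the H3K27ac calls over all windows, 93 higher and 172 lower, turned to 27 and 3 without Control replicate 1, 26 and 7 without replicate 3, and 37 and 1 without replicate 4. For H3K9ac, the 555 calls (271 higher, 284 lower) became 1220 with the offset, 856 with no filter (293 higher, 563 lower), 995 after centring (291 higher, 704 lower), 0 with the block and 49 to 633 without 1 library, and the 5 among the regions became 9 with the offset, 1 with the mark in every library, 0 with the block and 0 to 11 without 1 library. The H3K9ac split over all windows turned to 1 higher and 84 lower without cKO replicate 1, 6 and 104 without cKO replicate 2, and 2 and 47 without cKO replicate 4. 

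In neuron RNA, the 539 calls became 832 in DESeq2, 327 with the replicate block and 207 to 482 without 1 library, and the 3 near a region became 0 with the block, 0 at 1 kb, 6 at 50 kb, 6 by gene span and 0 to 2 without 1 library. In whole CA RNA, the 640 calls became 207 from replicates 1 to 3, 224 from replicates 4 to 6 and 467 to 669 without 1 library, and the single call near a region became 3 in DESeq2, 0 at 1 kb, 8 at 50 kb, 14 by gene span, 0 from either set of replicates and 1 to 2 without 1 library. The peak lists hold no read counts, so the effect of depth on these regions could not be measured, and more than 47% of them had a −log10 q under 5 in each cKO library. Same-numbered libraries of the 2 genotypes correlated in their deviations at -0.06 to 0.29 and over 0.1 in every pair of no data set, so the numbers were not taken as pairs and the block is given here only. Numbers were taken from the titles; the H3K27ac library titled Control replicate 1 has the number 2 in its file name, which would pair it otherwise, and that pairing was not run.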

Other observations

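On the X chromosome, outside the 19 autosomes used above, 4 of 2294 merged regions had H3K4me3 in all 4 cKO and no Control library and 16 the opposite. On the Y chromosome 0 and 2 of 73 regions did.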
